A study of Mus with 4 samples.

Results

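The Ifi200 genes of the mouse are a cluster of interferon-inducible genes whose products carry a HIN domain, which binds DNA. The 10 genes examined were chosen by symbol: Ifi203, Ifi204, Ifi205, Ifi207, Ifi208, Ifi209, Ifi211, Ifi213, Mndal and Aim2. Of these, 2 (Ifi203 and Ifi207) have a row among the 21230 genes of the expression table. The other 8, Aim2 among them, are not analysed here. The RefSeq annotation of GRCm38.p6 gives Mndal also as a synonym of Ifi203. Ifi206, a further gene of the same cluster that is not one of the 10, also has a row and is described beside them.

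Most proteins of this family join a DNA-binding HIN domain to a pyrin domain, through which they meet other pyrin proteins. Aim2, the best known member, recognises DNA in the cytosol and assembles an inflammasome with Pycard, which leads to the cleavage of Gsdmd and of interleukin precursors. Many genes of the cluster are transcribed after interferon signalling, and several are best known from macrophages and lymphocytes. The copies resemble each other closely, so that reads shared between copies may have been split or dropped, and levels of single copies are uncertain to that extent.

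The RNA came from cochleae of mice bearing Otof c.1315 C>T, a nonsense mutation in otoferlin, the calcium sensor of the inner hair cell synapse. Both groups carried this mutation. The 2 untreated libraries are labelled as from mice that did not receive RESTART, and the 2 RESTARTv3 libraries from mice given RESTART v3 in an AAVie vector, which brings a guide small nucleolar RNA, a DKC1 isoform and a near-cognate tRNA into cells of the inner ear. Mice of the study were injected through the posterior semicircular canal of the left ear at an age of 4 weeks; the labels give neither the age at which these cochleae were collected nor how many animals stand behind a library. The labels do not say whether the untreated mice were injected with a control vector, so effects of surgery, of the vector and of RESTART v3 itself cannot be told apart. The paper speaks of cochleae taken before and after treatment, so the groups may also differ in age. An effect of age cannot be told apart from those of treatment either. The untreated libraries, which carry no replicate number, are referred to as A and B, and these letters imply no order. In these whole cochleae, more cells that express a gene and more RNA per cell cannot be told apart.

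Levels were deposited as RPKM, reads divided by the length of the gene and by the reads of the library, where the length includes introns. The library totals recovered from the values lay between 39650172 and 71144247 reads, and reads of listed genes made up 54.4% to 62.6% of 3 libraries but 29.6% of RESTARTv3 2. As a result, RESTARTv3 2 was low for most genes as deposited, and levels are also given after median-of-ratios scaling, which sets the libraries to a common level for the typical gene. Coch and Otos, markers of cochlear fibrocytes, stood at percentile 97.3 of listed genes or higher in every library. Otof had 286 and 251 reads in untreated A and B, and 317 and 90 reads in RESTARTv3 1 and 2. Its scaled RPKM was 0.0810 and 0.0350 against 0.0359 and 0.0242, so the groups overlapped and no rise was seen. The paper reports higher Otof after treatment by qRT-PCR, a different measure. Dkc1 is the mouse gene of the delivered synthase. Its scaled RPKM was 0.397 and 1.21 in untreated A and B, against 2.77 and 2.95 in RESTARTv3 1 and 2. After scaling, 16.2% of all listed genes were higher in both RESTARTv3 libraries. Whether the reads counted for Dkc1 came from the mouse gene or from the vector was not tested.

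Ifi203 had the highest level of the 3 genes, about equal to that of Ifi207 in untreated A, and once the libraries were scaled, each RESTARTv3 library exceeded each untreated one. Its reads numbered 182 in untreated A, 1421 in untreated B, 3637 in RESTARTv3 1 and 1310 in RESTARTv3 2. The deposited RPKM of Ifi203 was 0.204, 1.11, 2.28 and 0.955 in the same order. As deposited, the groups overlapped, because untreated B lay above RESTARTv3 2. After scaling, the RPKM of Ifi203 was 0.220 and 0.844 in untreated A and B, and 1.75 and 1.50 in RESTARTv3 1 and 2. The scaled groups did not overlap, with means of 0.532 ± 0.442 (SD, n = 2) and 1.63 ± 0.178 (SD, n = 2). Untreated A stood apart, at a level well under that of untreated B.

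Ifi207 followed the same order of libraries at a lower level. It had 145 reads in untreated A, 607 in untreated B, 1429 in RESTARTv3 1 and 578 in RESTARTv3 2, which gave deposited RPKM values of 0.199, 0.581, 1.09 and 0.515. Again untreated B was above RESTARTv3 2 on the deposited scale. The scaled RPKM of Ifi207 was 0.214 and 0.440 in untreated A and B, and 0.842 and 0.810 in RESTARTv3 1 and 2. Here the RESTARTv3 libraries were nearly equal and both exceeded the untreated ones, with means of 0.826 ± 0.0226 (SD, n = 2) and 0.327 ± 0.160 (SD, n = 2).

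Ifi206, the additional gene of the cluster, was the least abundant. Its reads numbered 47, 200, 792 and 305 in untreated A, untreated B, RESTARTv3 1 and RESTARTv3 2. The deposited RPKM of Ifi206 was 0.0519 and 0.154 in the untreated libraries, against 0.488 and 0.219 in the RESTARTv3 libraries, so that it was the only one of the 3 genes whose groups did not overlap as deposited. Scaled, its RPKM was 0.0558 and 0.117 against 0.376 and 0.344.

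**Figure D1:**
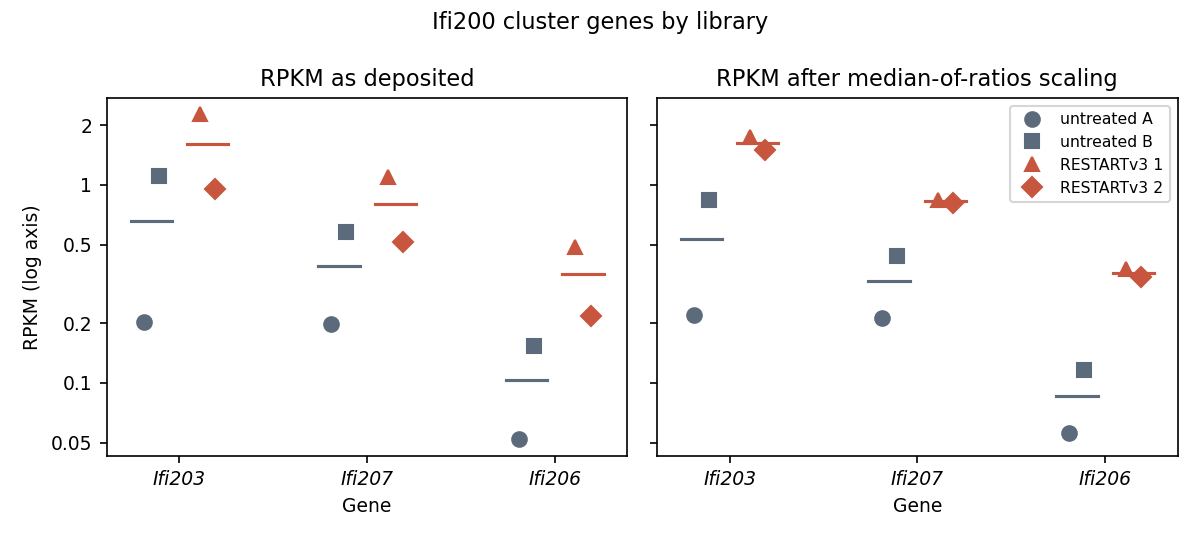
RPKM of Ifi203, Ifi207 and Ifi206 in each of the 4 libraries, as deposited (left) and after median-of-ratios scaling (right), on a log axis; points are libraries and horizontal lines are group means (n = 2). On the left RESTARTv3 2 lies under untreated B for Ifi203 and Ifi207, while on the right both RESTARTv3 libraries lie above both untreated libraries for each gene.

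How unusual such a separation is can be read from all listed genes. Both RESTARTv3 libraries exceeded both untreated libraries for 2.24% of the listed genes as deposited and for 16.2% after scaling. Separation of the scaled groups, seen for 2 of 2 listed members, is thus common in this table. The rank of a gene within its own library needs no scaling factor. Ifi203 stood at percentile 50.2 of listed genes in untreated A, 75.1 in untreated B, 86.2 in RESTARTv3 1 and 84.1 in RESTARTv3 2. For Ifi207 the percentiles were 49.7, 62.3, 75.1 and 74.7, and for Ifi206 they were 29.0, 37.4, 58.7 and 57.6. By rank, too, the groups did not overlap for any of the 3 genes, a pattern that 16.2% of listed genes showed.

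The gap between the untreated libraries differed among the genes. Scaled, Ifi203 was 3.84 times as high in untreated B as in untreated A, Ifi207 2.06 times and Ifi206 2.10 times. Between RESTARTv3 1 and 2 the scaled ratios were only 1.17, 1.04 and 1.09. In reads, untreated B held 7.81 times as many reads of Ifi203 as untreated A, close to the largest ratio of 8 found between libraries of one group for any listed gene. No more than 184 of the listed genes (0.867%) had an equal or larger ratio, and genes beyond 8 are not analysed here. Compared with untreated B, the scaled level of Ifi203 was 2.08 times as high in RESTARTv3 1 and 1.78 times in RESTARTv3 2, whereas compared with untreated A it was 7.99 and 6.85 times as high. The size of the difference therefore rested on which untreated library was taken.

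In the test across all genes, neither member passed the threshold. Of 15948 genes tested with limma on log2(RPKM + 0.05), 0 had an adjusted p under 0.05 (0% called). Without adjustment, 167 genes (1.05%) fell under 0.05, and 20 of these were higher in RESTARTv3. Limma after scaling and limma voom on the recovered reads also called 0 genes, with 363 and 406 genes under an unadjusted 0.05. Of these, 240 and 256 were higher in RESTARTv3, so most went up in those fits, unlike on the deposited scale. On the deposited scale, the log2 change of Ifi203 was 1.49 (SE 0.92, 95% interval -0.31 to 3.29, adjusted p = 0.9999 by limma). That of Ifi207 was 1.02 (SE 0.91, 95% interval -0.77 to 2.81, adjusted p = 0.9999 by limma), and that of Ifi206 was 1.40 (SE 0.77, 95% interval -0.11 to 2.91, adjusted p = 0.9999 by limma). Both members thus had a positive estimate with an interval that included 0.

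Scaling the libraries narrowed the errors without making a call. After scaling, the log2 change was 1.77 (SE 0.62) for Ifi203, 1.28 (SE 0.44) for Ifi207 and 1.62 (SE 0.36) for Ifi206, each with an adjusted p of 0.750 by limma. With voom on recovered reads, it was 1.88 (SE 0.65) for Ifi203, 1.40 (SE 0.49) for Ifi207 and 2.13 (SE 0.51) for Ifi206, each with an adjusted p of 0.771. The unadjusted p was under 0.05 for both members in these fits, as it was for 2.28% and 2.2% of all genes. All genes together had a median log2 change of -0.25 as deposited and -0.02 after scaling. Relative to that median, the change of Ifi203 was 1.74 and 1.79, and that of Ifi207 was 1.27 and 1.31.

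The untreated libraries decided the size of these estimates. Without untreated A, the scaled log2 change was 0.93 for Ifi203, 0.87 for Ifi207 and 1.33 for Ifi206, and none was called (adjusted p = 0.9998 by limma for each). Without untreated B, it was 2.60, 1.70 and 1.90, each called with an adjusted p of 0.0158 by limma, but so were 7966 of the 15750 genes tested, 50.6%. With voom and without untreated B, the members were called at an adjusted p of 0.00722 (Ifi203) and 0.00736 (Ifi207), beside 48% of all genes. In each such fit the lone library of a group is assumed to vary like those of the other group. On the deposited scale no fit without a library called either member. There the log2 change of Ifi203 was 0.39 without untreated A, 2.59 without untreated B, 0.89 without RESTARTv3 1 and 2.10 without RESTARTv3 2, the library with few reads in listed genes. For Ifi207 these values were 0.35, 1.69, 0.51 and 1.53. With 2 libraries per group, the smallest p of an exact permutation test for a single gene is 0.333, 2-sided.

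Ratios between the genes within a library are free of library totals. Ifi203 exceeded Ifi207 by a factor of 1.92 (95% interval 1.74 to 2.11) in untreated B, 2.09 (1.96 to 2.22) in RESTARTv3 1 and 1.86 (1.68 to 2.05) in RESTARTv3 2. In untreated A the factor was 1.03 (0.822 to 1.29), so that the members were about equally abundant in that library and in none of the other 3. These exact binomial intervals cover counting error only. The ratio of Ifi207 to Ifi206 instead separated the groups: it was 3.83 (2.74 to 5.44) and 3.77 (3.21 to 4.44) in untreated A and B, and 2.24 (2.05 to 2.45) and 2.35 (2.04 to 2.71) in RESTARTv3 1 and 2. Ifi206 was therefore higher relative to Ifi207 in both RESTARTv3 libraries, but how many other gene pairs separate in this way was not tested. The ratio of Ifi203 to Ifi206 did not separate the groups, with 3.94, 7.22, 4.67 and 4.37 in untreated A, untreated B, RESTARTv3 1 and RESTARTv3 2.

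**Figure D2:**
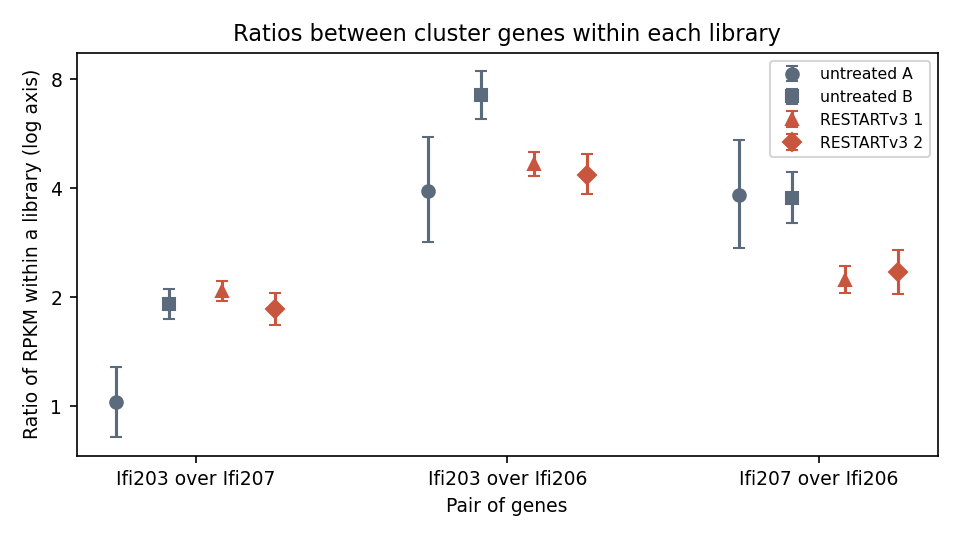
Ratios of RPKM between pairs of cluster genes within each library, on a log axis; bars are exact binomial 95% intervals from the recovered reads and cover counting error only. Untreated A stands apart for Ifi203 over Ifi207 at 1.03, and both untreated libraries (3.83 and 3.77) lie above both RESTARTv3 libraries (2.24 and 2.35) for Ifi207 over Ifi206.

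The cluster lies between Cadm3, a cell adhesion gene, and a stretch of olfactory receptor genes, in the gene order of GRCm38.p6. Of the 15 genes chosen as flanking the cluster, 10 were listed and 9 tested. Limma called 0 of the 9, with 0 of them under an unadjusted 0.05 (1 with voom, which tested 10). Their median change was -0.43 relative to the median gene, with 2 of 9 above it. After scaling, 2 of the 10 listed were higher and 3 lower in both RESTARTv3 libraries. Among all listed genes 16.2% were higher, and the share lower is not given here. Cadm3, nearest to the cluster, had scaled RPKM values of 0.736 and 0.336 in untreated A and B, and 0.303 and 0.316 in RESTARTv3 1 and 2, so it was lower in both RESTARTv3 libraries, while the cluster genes were higher. Ackr1, a chemokine-binding receptor of venules and red cells, was at 0.935, 1.15, 1.11 and 0.969, within the spread of the untreated libraries.

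Slamf8, a receptor of myeloid cells, had the largest voom change of the flanking genes. Its reads numbered 17 and 47 in untreated A and B, and 140 and 50 in RESTARTv3 1 and 2, and its voom change relative to the median gene was 1.37 (SE 0.47, adjusted p = 0.771). Fcrl6, an Fc receptor-like gene, had too low an RPKM for the main test, with 3, 15, 28 and 13 reads and a voom change of 1.22 (SE 0.56). The other flanking genes had voom changes relative to the median gene of -0.46 (Dusp23, a phosphatase), -0.63 (Igsf9), -0.01 (Tagln2, an actin-binding protein), 0.52 (Pigm, an enzyme of glycolipid anchor synthesis), -0.96 (Kcnj9) and -0.43 (Kcnj10), both potassium channel genes. None of the flanking genes reached the change of Ifi203 (1.88), Ifi207 (1.41) or Ifi206 (2.14) on that scale. Slamf8 at 1.37 was nonetheless close to Ifi207, with a gap well under their SE (0.47 and 0.49). Past the olfactory receptor genes, the listed gene Fmn2 had a voom change of -0.47 (SE 0.44), and Cfap45, between Tagln2 and Slamf8, one of -1.17 (SE 0.53), the lowest of the genes plotted along the locus. Both were chosen after their values were seen.

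**Figure D3:**
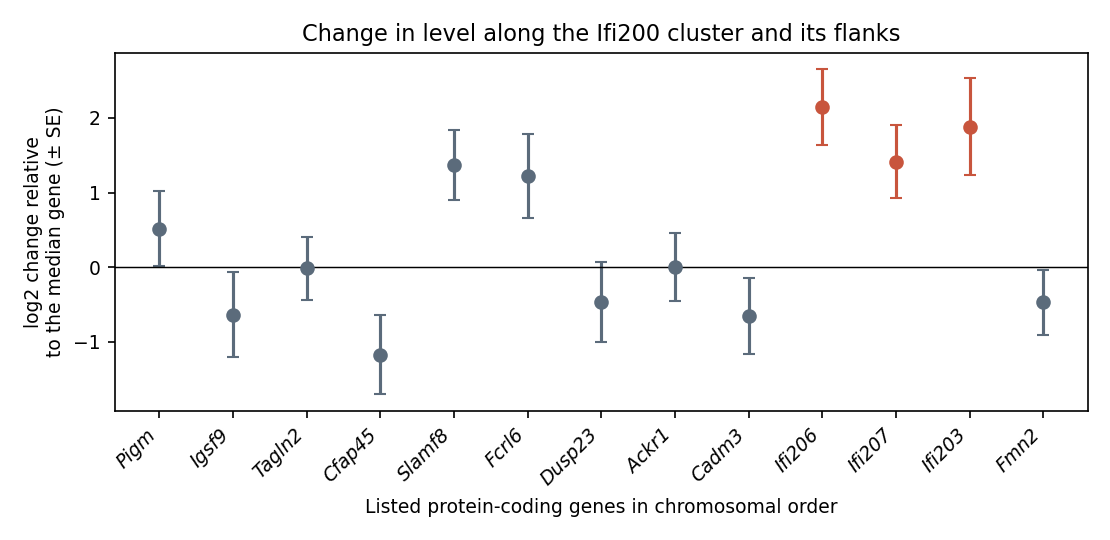
Log2 change between RESTARTv3 and untreated libraries relative to the median gene, from limma voom on recovered reads, for the listed protein-coding genes in their order along the chromosome; bars are ± SE from 2 libraries per group. The cluster genes Ifi206, Ifi207 and Ifi203 lie between 1.41 and 2.14, Slamf8 and Fcrl6 at 1.37 and 1.22, and the other genes shown at or under 0.52.

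Aim2 itself has no row, but 8 of 10 genes chosen as its inflammasome partners were tested. Limma called 0 of the 8, with 0 under an unadjusted 0.05 (1 with voom), and their median change relative to the median gene was 0.56, with 7 of 8 above it. After scaling, 5 of the 8 were higher and 1 lower in both RESTARTv3 libraries, where 16.2% of all listed genes were higher. The share of all listed genes that were lower in both is not given here. Pycard, the adaptor that Aim2 binds, had scaled RPKM values of 2.37 and 2.42 in untreated A and B, and 2.78 and 2.44 in RESTARTv3 1 and 2, which are close together. Gsdmd, the pore-forming protein cleaved after inflammasome activation, overlapped between groups at 1.98, 1.42, 2.12 and 1.69. Ninj1, which ruptures the membrane of dying cells, was lower in RESTARTv3 libraries at 1.33 and 1.22, against 5.96 and 1.46 in untreated A and B, where untreated A alone was high. Chosen after their values were seen, Il1b, an inflammatory cytokine, and Casp8, a protease of cell death, had voom changes relative to the median gene of 1.24 (SE 0.48) and 1.01 (SE 0.51).

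Among 11 tested genes of the response to cytosolic DNA, out of 12 chosen, limma called 0, with 0 under an unadjusted 0.05 (3 with voom). The median change of the list was 0.17 relative to the median gene, and 9 of 11 genes lay above it. After scaling, 5 of the 11 were higher and 1 lower in both RESTARTv3 libraries. Among all listed genes 16.2% were higher, and the share lower is not given here. Myd88, the adaptor of Toll-like receptors, had scaled RPKM values of 3.32, 2.75, 3.33 and 3.09, and its groups overlapped. Zbp1, a sensor of nucleic acids in the Z form that was named after its values were seen, had 140 and 232 reads in untreated A and B, and 1404 and 576 in RESTARTv3 1 and 2. Its scaled RPKM of 0.308 and 0.251 against 1.24 and 1.21 separated the groups, and here the untreated libraries were close to each other. The log2 change of Zbp1 as deposited was 1.70 (SE 0.92, adjusted p = 0.9999 by limma).

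Interferon signalling genes lay above the median gene more often than not. All 14 genes of the list, among them receptors, kinases and transcription factors, were tested. Limma called 0 of the 14, with 0 under an unadjusted 0.05 (1 with voom). Their median change was 0.50 relative to the median gene, 11 of 14 lay above it, and 9 of 14 were higher in both RESTARTv3 libraries after scaling, against 16.2% of all listed genes. Irf7, an interferon-induced transcription factor, was at 6.85, 3.09, 7.99 and 12.5, and Irf9, a DNA-binding factor activated by interferon receptors, at 3.79, 3.25, 5.30 and 6.02. Irf1, a further interferon-induced factor, was at 2.36, 2.07, 4.70 and 3.35. For all 3 Irf genes the RESTARTv3 libraries were the higher ones after scaling, but untreated A was above untreated B, the reverse of the order found for Ifi203 and Ifi207. As deposited, only Irf7 kept that reverse order, at 6.37 and 4.09 in untreated A and B. Irf9 was then at 3.52 and 4.29, and Irf1 at 2.20 and 2.73. Of 9 interferon genes themselves, 0 are listed, and they are not analysed here.

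**Figure D4:**
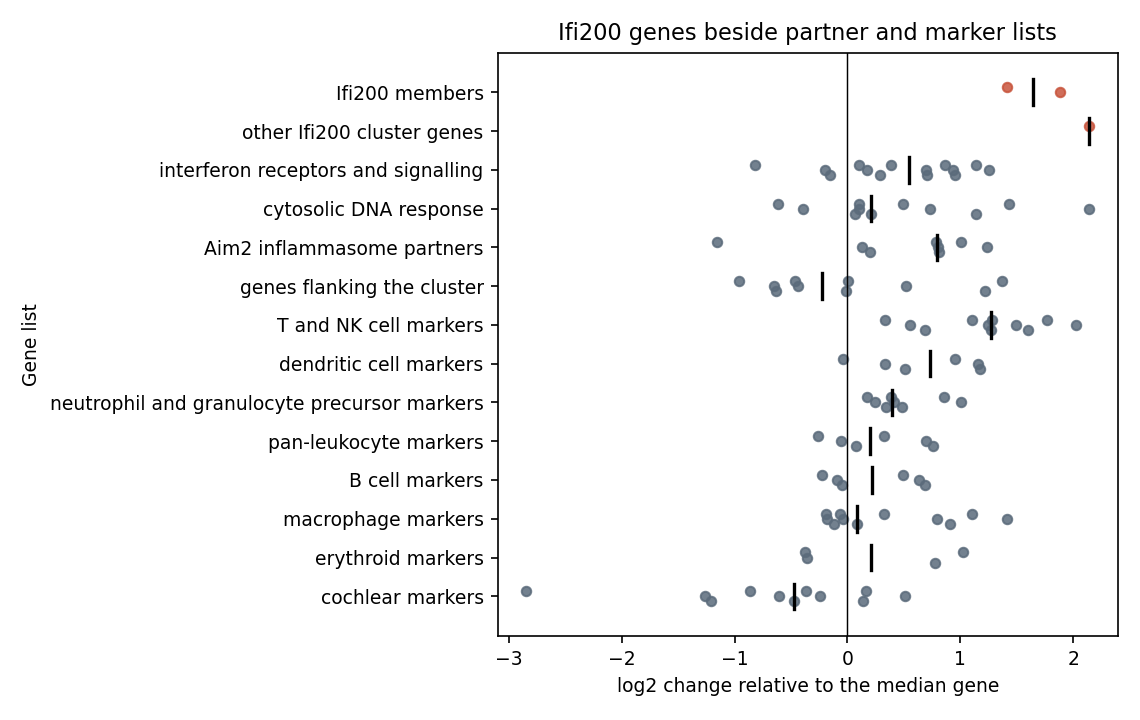
Log2 change relative to the median gene (limma voom on recovered reads) for the Ifi200 genes and for each partner and marker list; points are genes, spread vertically to show overlap, and black bars are list medians. The Ifi200 genes lie between 1.41 and 2.14, the T and NK cell markers have the highest median of the other lists at 1.27, and the cochlear markers lie lowest at -0.48.

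Limma called 0 genes of any marker list, and 0 genes of the blood cell lists were under an unadjusted 0.05 as deposited. With voom, which also called 0, an unadjusted p under 0.05 was found for 4 T and NK cell markers, 1 macrophage marker and 1 dendritic cell marker. Among the cochlear markers 1 was under it, Otog, named after its values were seen. Its voom change relative to the median gene was -2.84 (SE 0.99), and it was also under an unadjusted 0.05 by limma as deposited. Of 12 T and NK cell markers, 11 were listed. As deposited, 3 of the 11 were higher in both RESTARTv3 libraries (2.24% of all listed genes), and after scaling 10 of the 11 were (16.2% of all listed genes). Their summed scaled RPKM was 2.89 and 3.30 in untreated A and B, and 5.63 and 5.19 in RESTARTv3 1 and 2, and no listed marker was at 0. As deposited, the sums of 2.69 and 4.36 against 7.30 and 3.30 overlapped. Nkg7, of cytotoxic granules, made up most of that sum, and Gzma, a granule protease, had 20, 82, 157 and 78 reads. The level of Ifi203 relative to the sum was 0.0759 and 0.256 in untreated A and B, and 0.312 and 0.290 in RESTARTv3 1 and 2. Ifi207 relative to it was 0.0738, 0.133, 0.150 and 0.156. For both members, RESTARTv3 libraries remained highest in these ratios, but the gap from untreated B was smaller than in the levels.

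The macrophage markers were mixed. All 11 were listed, none at 0. After scaling, 4 of them were higher and 0 lower in both RESTARTv3 libraries, where 16.2% of all listed genes were higher. Fcgr1, an antibody receptor, had a voom change relative to the median gene of 1.41 (SE 0.43) and Aif1 one of 1.10 (SE 0.48), both chosen after their values were seen, against -0.19 (SE 0.62) for C1qa, a complement subunit. The summed scaled RPKM of the list was 63.1 and 25.7 in untreated A and B, and 37.1 and 38.0 in RESTARTv3 1 and 2. Untreated A, where Ifi203 and Ifi207 were lowest, thus had the highest sum, with C1qa at a scaled RPKM of 21.3. For 6 of 8 pan-leukocyte markers listed, none at 0, the scaled sum was 34.7 and 30.5 in untreated A and B, and 42.5 and 30.7 in RESTARTv3 1 and 2, and Coro1a, an actin regulator of leukocytes, was the most abundant. Relative to that sum, Ifi203 was at 0.00633, 0.0277, 0.0413 and 0.0490 in the 4 libraries, so the order of the groups held. The 6 dendritic cell markers, all listed and none at 0, summed to a scaled RPKM of 0.564 and 0.796 in untreated A and B, and 1.21 and 1.04 in RESTARTv3 1 and 2. As deposited, their sums of 0.525 and 1.05 against 1.57 and 0.66 overlapped. After scaling, 2 of the 6 were higher in both RESTARTv3 libraries, as were 16.2% of all listed genes. Scaled sums of neutrophil and granulocyte precursor markers (258 and 298 against 454 and 260) and of B cell markers (5.34 and 7.14 against 9.11 and 4.07) overlapped between the groups. Erythroid markers, also scaled, summed to 112 and 296 in untreated A and B, and 344 and 353 in RESTARTv3 1 and 2, but this sum was mostly Hbb-bs, a hemoglobin gene. As deposited, the erythroid sums of 105 and 391 against 446 and 224 overlapped. Of the 4 listed erythroid markers, 2 were higher and 2 lower in both RESTARTv3 libraries after scaling. Among all listed genes 16.2% were higher, and the share lower is not given here. The scaled sum of cochlear markers was 295 and 254 in the untreated libraries, against 225 and 197 in the RESTARTv3 libraries. As deposited, the cochlear sums of 274 and 335 against 292 and 125 overlapped. Of the 11 listed cochlear markers, 0 were higher and 7 lower in both RESTARTv3 libraries after scaling. Here too 16.2% of all listed genes were higher, and the share lower is not given. The part of these cell types in the levels of Ifi203 and Ifi207 was not tested.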

How the data were processed

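The authors deposited a table of RPKM values. According to the methods and to the submitters' processing notes, ribosomal RNA was depleted, stranded libraries were made, and read 2 was trimmed (cutadapt 4.2), freed of duplicates, stripped of identifiers (UMI-tools 1.0.0), aligned to GRCm39 (STAR 2.7.10b), filtered (SAMtools 1.14) and counted (HTSeq 1.14). Genes whose replicates differed were removed. The limit stated was 2-fold, but ratios of reads in the table reach 8-fold, and no value is 0. The labels give the molecule as polyA RNA, unlike the methods.

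Whole reads and library totals were recovered from the values (whole within 0.001 for 100% of genes). Ifi203 was whole at its length on GRCm38.p6, an older assembly used only for names, lengths and gene order; the length for Ifi207 was inferred. The main test was limma 3.58.1 (R 4.3.3; lmFit, eBayes with trend) on log2(RPKM + 0.05), where the mean RPKM reached 0.05, 2-sided, with Benjamini-Hochberg adjustment at 0.05 over all 15948 genes. Fold changes on this scale understate those of low genes. Alternatives changed the pseudocount, minimum, scaling and replicate filter, used voom (mean of 10 reads or more), or left out each library. Leaving out libraries under voom was chosen after seeing the data. The fits were run on simulated reads with known changes and a common spread for all genes, unlike these libraries. That run does not show how the fits behave on these data.

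The members and gene lists were chosen with earlier results of these data known. Named genes were all members, up to 3 genes of each partner list with the highest mean RPKM, all listed flanking genes, and up to 2 genes of a marker list; exceptions are stated. A gene of the interferon signalling list is not reported here and is in none of its counts. The study describes 2 independent replicates per group. The labels do not say which animals they came from, so p-values measure the spread between these libraries. Low counts limit the precision of Ifi206 and Fcrl6 most. No sequences are shown.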

Additional observations from a re-analysis of the deposited data

How the results depend on the processing

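Both members kept a higher level in RESTARTv3 in every fit that tested them. Relative to the median gene, the change of Ifi203 lay between 0.88 and 2.90 over 19 alternatives, and that of Ifi207 between 0.64 (pseudocount 0.5) and 1.97 over 18. Each passed the threshold in 2 of these alone, the scaled and the voom fit without untreated B. With libraries left out in turn, the ranges were 0.88 to 2.90 for Ifi203 and 0.84 to 1.97 for Ifi207, the number of members called was 0 to 2, that of partner and marker genes 0 to 55 and that of all genes 0 to 8827. With no minimum, 1 gene was called (AY036118, named after its values were seen). A minimum mean RPKM of 1 left out Ifi207 and Ifi206, and the 2-fold replicate filter left out all 3, so that no value could be had there.

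The changes of 9 partner and flanking genes turned sign relative to the median gene in some fits. Pycard was at -0.036 with no minimum and -0.028 with pseudocount 0.5, and Myd88 at -0.071 and -0.064. Ackr1 was at 0.025 after scaling, 0.25 with a minimum of 1, 0.018 with pseudocount 0.01, 0.10 after quantile normalization and 0.0074 with voom. Tagln2 was at 0.20 with a minimum of 1 and 0.27 after quantile normalization. Over the fits without one library, the range was -0.084 to 0.28 for Pycard, -0.088 to 0.48 for Gsdmd, -0.082 to 0.27 for Myd88, -0.18 to 0.21 for Ackr1, -0.35 to 0.36 for Tagln2, -0.96 to 0.070 for Dusp23, -1.25 to 0.10 for Igsf9, -1.65 to 0.073 for Kcnj9 and -0.051 to 1.10 for Pigm. The cause was not tested. No paired analysis was possible because the untreated columns carry no replicate number.

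With 2 libraries per group and an untreated pair that differed 3.84-fold for Ifi203, the data cannot place the size of its difference within narrow limits. The 8 members without a row were not analysed here.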

Other observations

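Between Aim2 and Ifi206 in the gene order of GRCm38.p6 lies n-TRtct5, a listed transfer RNA gene for arginine. Its reads numbered 100 in untreated A, 29 in untreated B, 22 in RESTARTv3 1 and 51 in RESTARTv3 2. The groups overlapped, and the row says nothing of Aim2 mRNA. This gene was chosen after its values were seen. By its symbol it carries the anticodon TCT, as does the arginine tRNA that the vector of the paper delivers. Whether any of these reads came from the vector was not tested.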
